A study of Mus musculus with 30 samples.

Results

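The 40 genes described here drive or mark the cell division cycle. They were chosen by name, and each was found in both deposited count tables, 40 of 24063 genes in macrophages and 40 of 24453 in hepatocytes. They fall into 7 groups: 3 G1 cyclins, 4 regulators of the G1 to S transition, 10 genes of DNA replication and nucleotide supply, 7 of G2 and mitotic entry, 7 mitotic kinases and checkpoint or exit factors, 8 of the spindle, kinetochore and cytokinesis, and 1 CDK inhibitor, Cdkn1a.

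The libraries came from primary mouse cells in culture: thioglycollate-elicited macrophages in RPMI medium (18 libraries, 3 per group) and hepatocytes in Hepatozyme medium (12 libraries, 2 per group). Each cell type was given vehicle (DMSO/EtOH) or 1 of 5 ligands: desmosterol, a cholesterol precursor, at 10 uM, or DMHCA, MePipHCA, GW3965 or T0901317 at 1 uM. DMHCA and MePipHCA are steroidal amides (cholenamides) that differ in the amide group. GW3965 and T0901317 are synthetic agonists of the liver X receptors. All groups, vehicle included, shared 24 h in lipid-deficient medium with 10% serum, 50 uM mevalonate and 10 uM mevastatin, a blocker of mevalonate synthesis, before 18 to 20 h with ligand. Nothing in the labels ties replicates to separate animals or cultures, so every p-value here reflects the variation among these libraries, which may be technical. Cell type cannot be told apart from medium or from the date each sample title carries.

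Division is ordered by cyclins and their kinases. D-type cyclins carry growth signals in G1, cyclin E with Cdk2 and the E2F factors starts DNA synthesis, the MCM helicase and its partners copy the genome, and cyclins A and B with Cdk1 start mitosis, in which kinases and kinesins build and resolve the spindle. Elicited macrophages and hepatocytes are mostly resting cells, and many of these genes are low in such cells. Promoters of G2 and mitosis genes often hold a CCAAT box and a CHR element, and those of S phase genes an E2F element.

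To show what the genes of the different phases carry upstream, 5 stretches are printed, for Mki67, Top2a and Cdc20 (G2 and mitosis) and for Rrm2 and Mcm6 (S phase). Each is the 200 bases before the RefSeq start site, on the strand of the gene and 5′ to 3′, from build GRCm38.p6. They lie outside the transcript, at chr7:135716380-135716579 (Mki67, minus strand), chr11:99024190-99024389 (Top2a, minus), chr4:118437344-118437543 (Cdc20, minus), chr12:24708054-24708253 (Rrm2, plus) and chr1:128359706-128359905 (Mcm6, minus). Capitals mark TTTGAA (the CHR element), CCAAT (the CCAAT box) and TTTCCCGC, TTTCGCGC, TTTGCCGC or TTTGGCGC (E2F elements), on either strand, and matches may overlap.
Mki67: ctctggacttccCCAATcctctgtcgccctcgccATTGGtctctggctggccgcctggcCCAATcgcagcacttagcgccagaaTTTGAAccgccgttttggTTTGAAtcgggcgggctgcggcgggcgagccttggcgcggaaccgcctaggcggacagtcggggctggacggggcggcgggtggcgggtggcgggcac
Top2a: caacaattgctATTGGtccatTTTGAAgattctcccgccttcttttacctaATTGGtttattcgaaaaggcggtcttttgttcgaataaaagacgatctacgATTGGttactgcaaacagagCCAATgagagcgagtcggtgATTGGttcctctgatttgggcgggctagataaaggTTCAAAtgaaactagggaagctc
Cdc20: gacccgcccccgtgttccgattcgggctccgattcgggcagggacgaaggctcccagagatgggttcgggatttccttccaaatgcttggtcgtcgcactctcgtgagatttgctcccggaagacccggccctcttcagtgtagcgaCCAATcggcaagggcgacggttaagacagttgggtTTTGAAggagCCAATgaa
Rrm2: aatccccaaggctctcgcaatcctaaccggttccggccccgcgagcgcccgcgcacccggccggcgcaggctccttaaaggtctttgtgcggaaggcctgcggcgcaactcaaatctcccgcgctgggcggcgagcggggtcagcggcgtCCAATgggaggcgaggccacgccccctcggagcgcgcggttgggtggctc
Mcm6: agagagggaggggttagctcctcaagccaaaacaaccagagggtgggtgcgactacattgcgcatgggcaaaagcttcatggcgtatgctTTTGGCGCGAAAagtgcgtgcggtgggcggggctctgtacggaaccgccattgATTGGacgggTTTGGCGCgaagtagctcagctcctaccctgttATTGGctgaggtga

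RefSeq windows of 300 bases (250 before to 50 after the start site) matched 31 of the 40 genes. A CHR match was in 12 of 17 windows of G2 and mitosis genes (70.6%), in 1 of 9 of replication genes (11.1%) and in 0 of 5 of the other genes, beside 18.1% of 27025 genes. A CCAAT match was in 15 of 17 (88.2%), 8 of 9 (88.9%) and 2 of 5 windows (40%), beside 37.9% of all genes. An E2F match was in 1 of 17 (5.88%), 4 of 9 (44.4%) and 1 of 5 windows (20%), beside 2.32% of all genes. These are letter matches and do not show that a factor binds. Rrm2 had neither a CHR nor an E2F match in its window, and Mcm6 had 3 E2F matches.

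Macrophage libraries held 3.86 to 15.69 M counts (M stands for mega), those of vehicle 10.55 to 15.69 M and those of MePipHCA 4.24 to 6.8 M, and hepatocyte libraries 6.63 to 18.63 M. CPM (counts per M counts of the library) here use totals scaled by TMM factors, which correct for differences in makeup. The cell types carried their own markers: 8 macrophage markers (Lyz2, Cd68, Csf1r and others) summed to 16120 to 16200 CPM in vehicle macrophages and to 339.3 to 367.3 CPM in vehicle hepatocytes. The 8 hepatocyte markers summed to 39270 to 44690 CPM in vehicle hepatocytes. In vehicle macrophages they summed to 690.3 to 732.9 CPM, nearly all from transferrin (Trf, 709 CPM), and 3 of the 8 had no count. Vehicle macrophages also held 245.2 to 310.1 CPM of 8 stellate cell and fibroblast markers and 22.4 to 28.4 CPM of 5 mesothelial markers.

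Many of the genes were scarce. In macrophages 38 of the 40 passed the filter on low counts. Ccnb1 and Cdc25c did not, and Bub1 passed only with the help of the desmosterol and T0901317 libraries. All 40 passed in hepatocytes, Cdc25c only through vehicle and desmosterol libraries. In macrophages 13 genes had fewer than 100 counts over the 3 vehicle libraries and 29 over the 3 MePipHCA libraries, of which 7 had fewer than 10. In hepatocytes 10 genes had fewer than 100 counts over the 2 vehicle libraries and 10 over the MePipHCA libraries, and 2 had fewer than 10 with MePipHCA. Reads carry no molecular identifiers, so the counting intervals given below cover counting error only.

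Per transcript length, the median of the replication genes stood above the medians of the 3 mitotic groups in both cell types. The median level in vehicle macrophages was 5.51 RPKM (reads scaled by transcript length and library total) over the 10 replication genes, 1.02 over the G2 and mitotic entry group, 0.968 over the mitotic kinases and 0.783 over the spindle group. Pcna, the sliding clamp of DNA polymerases, had 56.7 RPKM and Cdkn1a, the p21 inhibitor of cyclin-dependent kinases, 40.6 RPKM. In vehicle hepatocytes the medians were 12.4, 1.73, 2.31 and 1.12 RPKM in the same order. Mcm6, a subunit of the replicative helicase, led the replication genes there with 41.5 RPKM, and Cdkn1a had 186 RPKM. The tables were normalised separately, so levels are ordered within a cell type only.

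MePipHCA lowered mitosis genes in macrophages. Of 38 genes tested, 28 fell and 1 rose at an adjusted p under 0.05 (edgeR quasi-likelihood test, adjusted over 11544 genes), beside 18.3% of all genes tested that fell and 17.1% that rose. All 5 tested genes of G2 and mitotic entry, all 7 mitotic kinases and checkpoint or exit factors and all 8 spindle genes fell. The replication group had 5 falls in 10, the G1 cyclins 2 in 3 and the G1 to S regulators 1 in 4. The median log2 fold change was -1.37, -1.50 and -1.12 in the 3 late groups and -0.33 in the replication group, beside 0.00 over all genes. Of the 29 calls, 16 held in every alternative tried and 0 changed sign. The vehicle libraries were the deeper ones, and with all libraries thinned to 1 depth 19 genes fell.

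**Figure D1:**
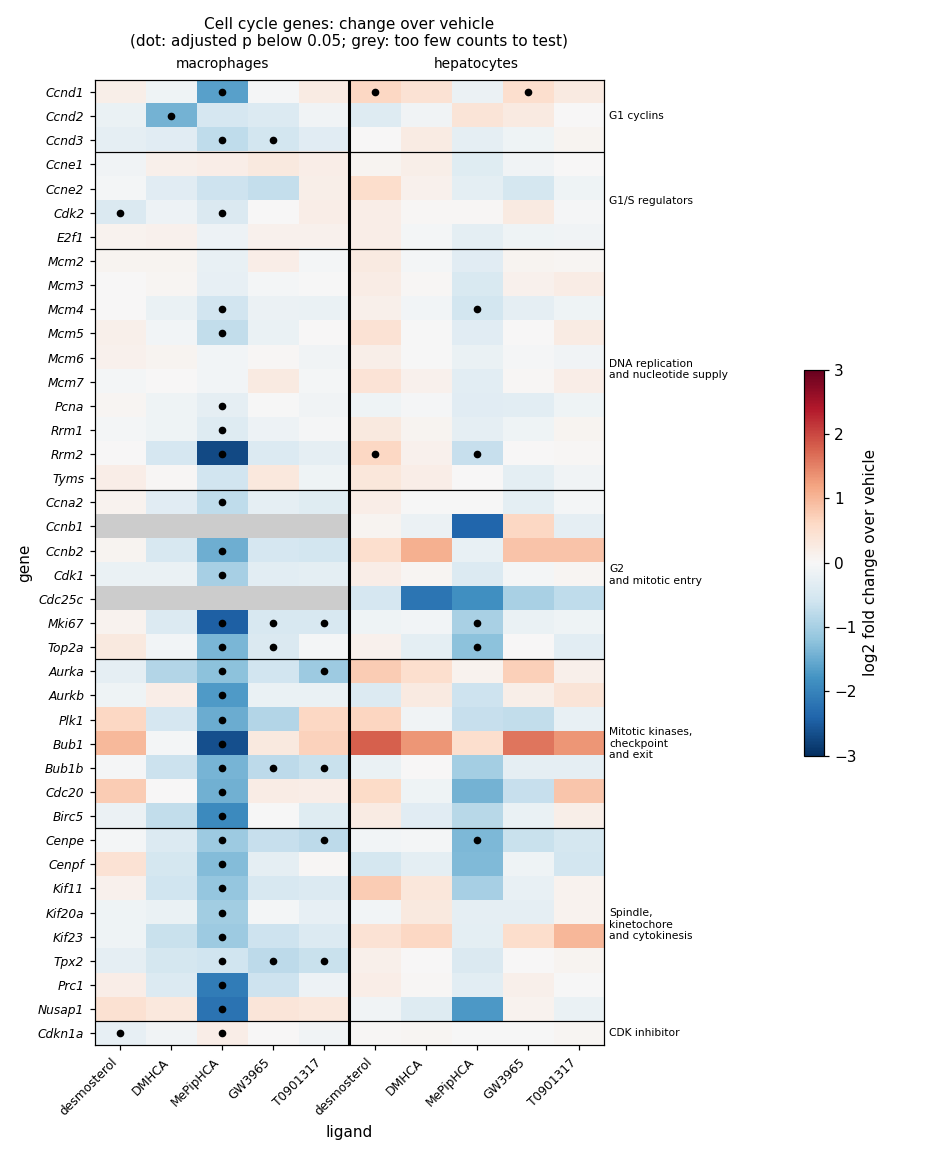
Each row is a gene, ordered by phase, and each column a ligand in macrophages (left) or hepatocytes (right); colour is the log2 fold change over vehicle, dots mark an adjusted p below 0.05 and grey marks genes with too few counts to test. The MePipHCA column in macrophages carries 29 dots, 20 of them in the 3 mitotic groups.

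Among the cyclins of G1, Ccnd1 (cyclin D1) had 10.8, 13.5 and 9.44 CPM in vehicle macrophages and 2.6, 3.3 and 4.69 CPM with MePipHCA. The groups did not overlap, and Ccnd1 fell by 1.63 ± 0.23 (log2 fold change ± SE), a 3.09-fold lower level (adjusted p = 2.69e-7). Ccnd3 (cyclin D3) fell from 17.6, 16.1 and 16.7 CPM to 9.52, 11.5 and 8.79 CPM, a log2 change of -0.77 ± 0.15 (adjusted p = 4.29e-5). Both were lower in each MePipHCA library than in any vehicle library. Ccnd2 (cyclin D2) was scarce, with 81 counts over the vehicle libraries and 23 with MePipHCA, and its log2 change was -0.50 (interval -1.35 to 0.36).

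Of the 4 G1 to S regulators 1 passed. E2f1, a factor that switches on S phase genes, had 21.9, 23.5 and 26.9 CPM in vehicle and 22.5, 19.8 and 22.3 CPM with MePipHCA. The ranges overlapped, with 1 MePipHCA library below all vehicle libraries, and the log2 change was -0.16 (interval -0.40 to 0.09, adjusted p = 0.336). Cdk2, the partner of cyclin E, fell from 19.6, 20.6 and 21.5 CPM to 14.3, 15.6 and 15.7 CPM, a log2 change of -0.44 ± 0.13 (adjusted p = 0.0064). Ccne2 (cyclin E2) had 1.75, 2.43 and 2.11 CPM in vehicle and 0.433, 1.41 and 2.05 CPM with MePipHCA, from 22 counts in all, and its interval of -1.44 to 0.21 included no change. Ccne1 (cyclin E1) had a log2 change of 0.20 (interval -0.49 to 0.89).

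The 2 replication genes with the highest CPM are Pcna and Mcm6. Pcna fell from 79.3, 82.8 and 80.4 CPM to 61.6, 70.2 and 67.7 CPM, a log2 change of -0.28 ± 0.07 (adjusted p = 0.00268). Mcm6 had 40.1, 39.9 and 39.1 CPM in vehicle and 39.8, 36.5 and 36.8 CPM with MePipHCA, and its log2 change was -0.08 (interval -0.26 to 0.10). Pcna was lower in every MePipHCA library, while the Mcm6 libraries overlapped. Of the 6 MCM helicase subunits, Mcm4 (-0.58 ± 0.11) and Mcm5 (-0.74 ± 0.19) fell, while Mcm2, Mcm3, Mcm6 and Mcm7 had log2 changes of -0.25 to -0.08 that did not pass. The 2 subunits of ribonucleotide reductase, which makes deoxynucleotides, also parted. Rrm1, the large subunit, fell by 0.38 ± 0.10 on the log2 scale. Rrm2, the small subunit, had 1.29, 3.43 and 2.78 CPM in vehicle and 0.649, 0.236 and 0.293 CPM with MePipHCA, from 6 counts in all. These library values were chosen after they were seen. Rrm2 was below vehicle in each MePipHCA library and fell by 2.70 ± 0.53. Tyms (thymidylate synthase) had a log2 change of -0.57 (interval -1.36 to 0.23).

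Mki67 and Top2a had the highest CPM of the G2 and mitotic entry group. Mki67, which encodes the proliferation antigen Ki-67, had 14.4, 16 and 16.4 CPM in vehicle macrophages and 3.46, 3.06 and 2.34 CPM with MePipHCA. Every MePipHCA library lay below every vehicle library, and Mki67 fell by 2.44 ± 0.21, to a level 5.41-fold lower (adjusted p = 5.03e-13). Top2a, the topoisomerase that untangles replicated chromosomes, fell from 11.2, 11.5 and 13 CPM to 4.33, 4 and 5.13 CPM, a log2 change of -1.37 ± 0.18 (adjusted p = 6.87e-8). Ccna2 (cyclin A2) fell by 0.77 ± 0.20, Cdk1, the mitotic kinase, by 1.00 ± 0.34 and Ccnb2 (cyclin B2) by 1.46 ± 0.52. The summed level of the 7 genes was 40.5, 42.3 and 46 CPM in vehicle and 15.1, 16.7 and 15.4 CPM with MePipHCA, 36.7% of vehicle.

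The 2 untested genes of that group can be given by counts alone. Ccnb1 (cyclin B1) had 0.184, 0.312 and 0.506 CPM in vehicle macrophages and 0.216, 0.471 and 0.147 CPM with MePipHCA. The values overlapped. Over the 3 libraries of a group there were 13 counts in vehicle, 15 with desmosterol, 8 with DMHCA, 4 with MePipHCA, 2 with GW3965 and 16 with T0901317. Cdc25c, the phosphatase that activates Cdk1, had 16 counts in vehicle, 13 with desmosterol, 10 with DMHCA, 1 with MePipHCA, 7 with GW3965 and 7 with T0901317. For Cdc25c the MePipHCA level was 15.4% of vehicle with an exact 95% counting interval of 0.368% to 99.3%. A difference in cyclin B1 was not detectable at this depth.

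All 7 mitotic kinases and checkpoint or exit factors fell with MePipHCA in macrophages. Bub1b, a spindle checkpoint kinase-like protein, had 8.76, 7.12 and 6.75 CPM in vehicle and 3.24, 2.12 and 3.08 CPM with MePipHCA, a log2 change of -1.39 ± 0.27 (adjusted p = 4.82e-5). Aurka, the centrosomal Aurora kinase, had 3.13, 3.75 and 2.53 CPM in vehicle and 0.865, 1.65 and 1.47 CPM with MePipHCA, a log2 change of -1.24 ± 0.37 (adjusted p = 0.00769). Neither gene's groups overlapped. Aurkb, the chromosomal passenger kinase, fell by 1.69 ± 0.50, its partner survivin (Birc5) by 1.92 ± 0.58, Plk1, a kinase of mitotic entry and exit, by 1.50 ± 0.55, and Cdc20, an activator of the anaphase-promoting complex, by 1.43 ± 0.50. Bub1 rested on 34 counts in vehicle and 2 with MePipHCA, 14.5% of the vehicle level with an exact 95% counting interval of 1.69% to 56.6%. The 7 genes together had 744 counts in vehicle and 106 with MePipHCA, a summed CPM 35% of vehicle.

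All 8 spindle, kinetochore and cytokinesis genes fell as well. Tpx2, a spindle assembly factor and activator of Aurora A, had 14.7, 9.99 and 10.3 CPM in vehicle and 9.08, 6.6 and 7.33 CPM with MePipHCA, a log2 change of -0.59 ± 0.20 (adjusted p = 0.0214). Kif20a, a kinesin of cytokinesis, had 7.37, 6.8 and 8.43 CPM in vehicle and 4.33, 1.89 and 4.25 CPM with MePipHCA, a log2 change of -1.05 ± 0.25 (adjusted p = 8.09e-4). Both were lower in every MePipHCA library than in any vehicle library. Prc1, which bundles midzone microtubules, fell by 2.09 ± 0.39 and Nusap1, a spindle microtubule binder, by 2.22 ± 0.69. The kinetochore proteins Cenpe (-1.09 ± 0.29) and Cenpf (-1.31 ± 0.36) and the kinesins Kif11 (-1.15 ± 0.42) and Kif23 (-1.08 ± 0.31) also fell.

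Cdkn1a was the 1 gene that rose. It had 89.6, 85.3 and 89.5 CPM in vehicle macrophages and 107, 99.2 and 99.6 CPM with MePipHCA. The libraries did not overlap, and the log2 change was 0.21 ± 0.06 (adjusted p = 0.00932). Without vehicle replicate 2 or MePipHCA replicate 1 the rise did not pass, with the highest adjusted p over all alternatives at 0.0672.

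Other cell types' markers moved with the same comparison, in which 18.3% of all genes tested fell and 17.1% rose. All 6 tested markers of stellate cells and fibroblasts fell, with Col1a2, Col1a1 and Dcn at -1.46, -1.55 and -1.36, and the 8 on the list summed to 80.2 to 97.3 CPM with MePipHCA, beside 245.2 to 310.1 CPM in vehicle. Of 5 mesothelial markers 4 fell, and the sum was 7.78 to 9.82 CPM, beside 22.4 to 28.4 CPM. The 4 cholangiocyte markers, which share Krt19 with the mesothelial list, summed to 3.53 to 4.33 CPM beside 10.2 to 11.2 CPM. The 6 T and NK cell markers summed to 0.649 to 0.733 CPM beside 2.86 to 3.5 CPM, with 3 and 2 of them at 0. In the mean over all macrophage libraries Cd4 (1.87 CPM) led that list, ahead of Cd3e (0.34 CPM). Only Cd4 among them passed the filter on low counts. The 6 endothelial markers summed to 150.3 to 165.1 CPM beside 138.7 to 168.3 CPM. Among 8 macrophage markers 5 fell and 1 rose, and their sum was 12820 to 13050 CPM beside 16120 to 16200 CPM. With DMHCA all 6 tested fibroblast markers also fell (beside 5.89% of all genes tested), and the list summed to 144.7 to 205.8 CPM. The part of these cells in the fall of the mitosis genes was not tested. In bulk RNA, fewer dividing cells and less of these RNAs per cell cannot be told apart.

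**Figure D2:**
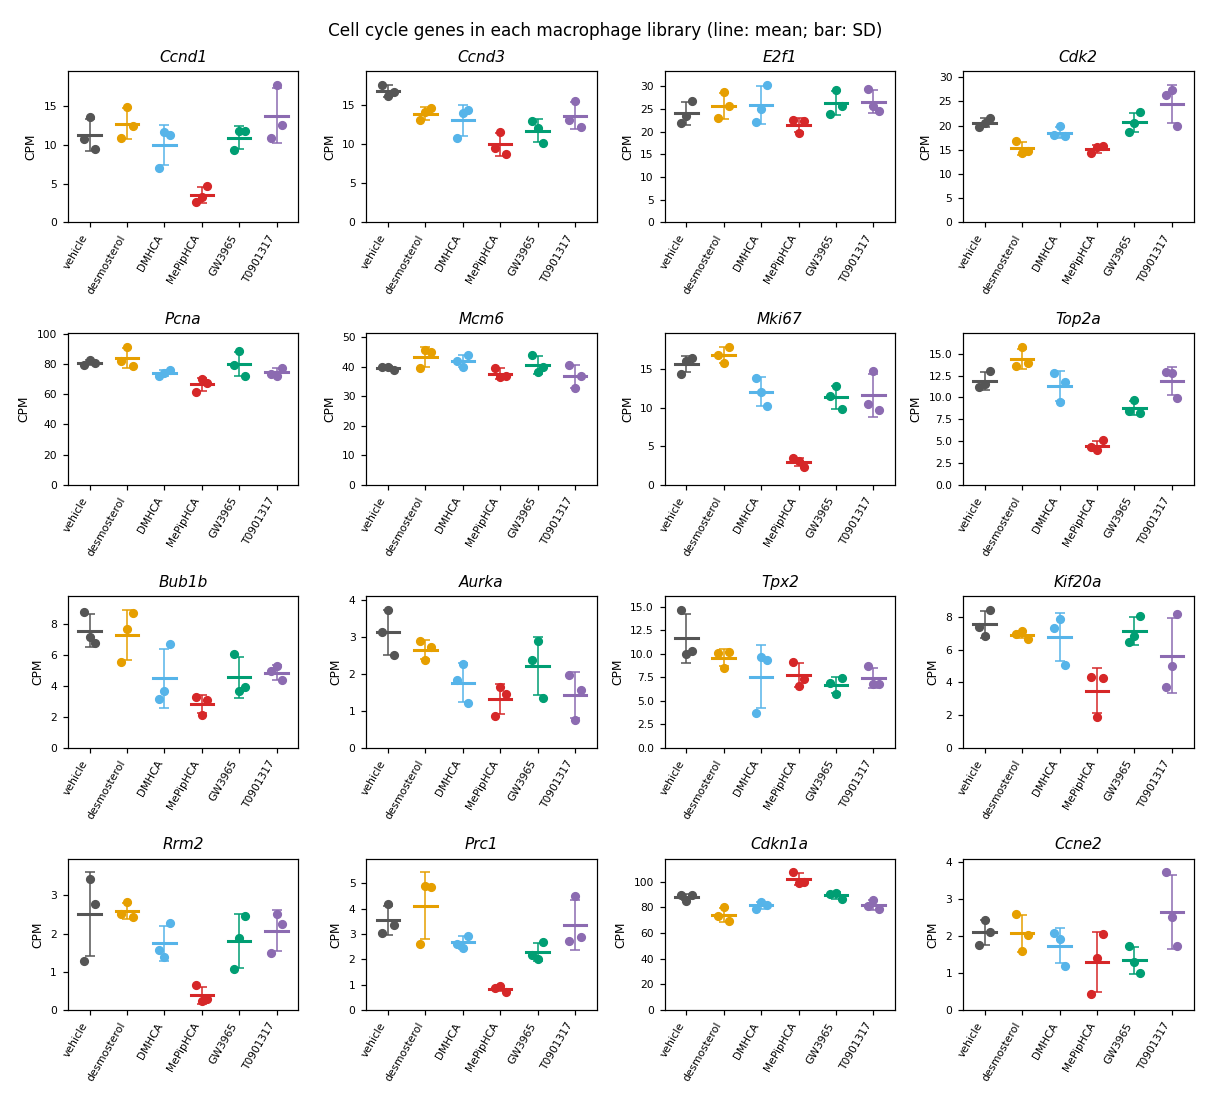
Each panel is a gene and shows CPM (y axis, from 0) in the 3 macrophage libraries of each group (points) with the mean (line) and SD (bar). In Mki67, Top2a and Prc1 the 3 MePipHCA points lie below all others, while in Mcm6 they lie within the range of the other groups.

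The other 4 ligands changed few of the genes in macrophages. Desmosterol lowered 2 of 38 genes (beside 4.57% of all genes tested), DMHCA 1 (5.89%), GW3965 5 (6.69%) and T0901317 5 (6.55%), and no member rose with any of them at the threshold by edgeR or by DESeq2. At an unadjusted p under 0.05 the rises numbered 3 with desmosterol and 0 with each of the other 3 ligands, and the falls 3, 7, 8 and 7. The share of all genes at an unadjusted p is not given, here or below, so such counts have no background beside them. All 4 comparisons share the vehicle libraries, and desmosterol was given at another dose, so its values stand beside the others without comparison.

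With desmosterol no mitosis gene passed: Mki67 had 16.8, 15.7 and 17.8 CPM and Top2a 13.6, 15.7 and 14 CPM, beside vehicle at 14.4 to 16.4 and 11.2 to 13 CPM. Its 2 calls were Cdk2, at 16.9, 14.4 and 14.8 CPM with a log2 change of -0.43 ± 0.11 (adjusted p = 0.00862), and Cdkn1a, at 73.5, 80 and 69.2 CPM with a log2 change of -0.24 ± 0.06 (adjusted p = 0.00688). Both lay below every vehicle library. Cdkn1a thus fell with desmosterol and rose with MePipHCA. The Cdk2 call was lost without desmosterol replicate 2 and the Cdkn1a call without replicate 3.

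With DMHCA, Ccnd2 had 0.523, 0.523 and 1.07 CPM, from 13 counts, beside 1.94, 2.75 and 1.35 CPM in vehicle, values chosen after they were seen. The groups did not overlap and the log2 change was -1.42 ± 0.48 (adjusted p = 0.0458), a call lost in 6 of 13 alternatives, DESeq2 among them and leaving out vehicle replicate 1 or 2 or any DMHCA replicate. The medians of the G2, kinase and spindle groups were -0.35, -0.50 and -0.47 on the log2 scale with DMHCA, and no gene of these groups passed. Mki67 had 13.9, 12 and 10.1 CPM, each below vehicle.

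GW3965 and T0901317 shared 3 lowered genes: Mki67, Bub1b and Tpx2. Mki67 had 11.4, 12.8 and 9.75 CPM with GW3965 (log2 -0.48 ± 0.15, adjusted p = 0.021) and 10.4, 14.8 and 9.63 CPM with T0901317 (log2 -0.49 ± 0.15, adjusted p = 0.021). The GW3965 libraries lay below vehicle, whereas 1 T0901317 library lay within it. Tpx2 changed by -0.79 ± 0.20 and -0.67 ± 0.20, and Bub1b by -0.78 ± 0.23 and -0.67 ± 0.23. GW3965 also lowered Ccnd3 (-0.54 ± 0.14) and Top2a (-0.44 ± 0.15), and T0901317 also lowered Aurka (-1.10 ± 0.35) and Cenpe (-0.78 ± 0.26). None of the 10 calls held in every alternative: by leaving out 1 library the GW3965 count ranged from 1 (without GW3965 replicate 3) to 4 and the T0901317 count from 0 (without T0901317 replicate 3) to 3, and DESeq2 called 4 and 1. Top2a with GW3965 was lost in 11 of 14 alternatives. Compared with each other, GW3965 and T0901317 differed for 0 of 38 genes by edgeR and by DESeq2 (0.0173% of all genes tested differed), with 3 lower and 0 higher with GW3965 at an unadjusted p under 0.05. The interval of that difference was -0.33 to 0.35 for Mki67 and -0.72 to -0.04 for Top2a.

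**Figure D3:**
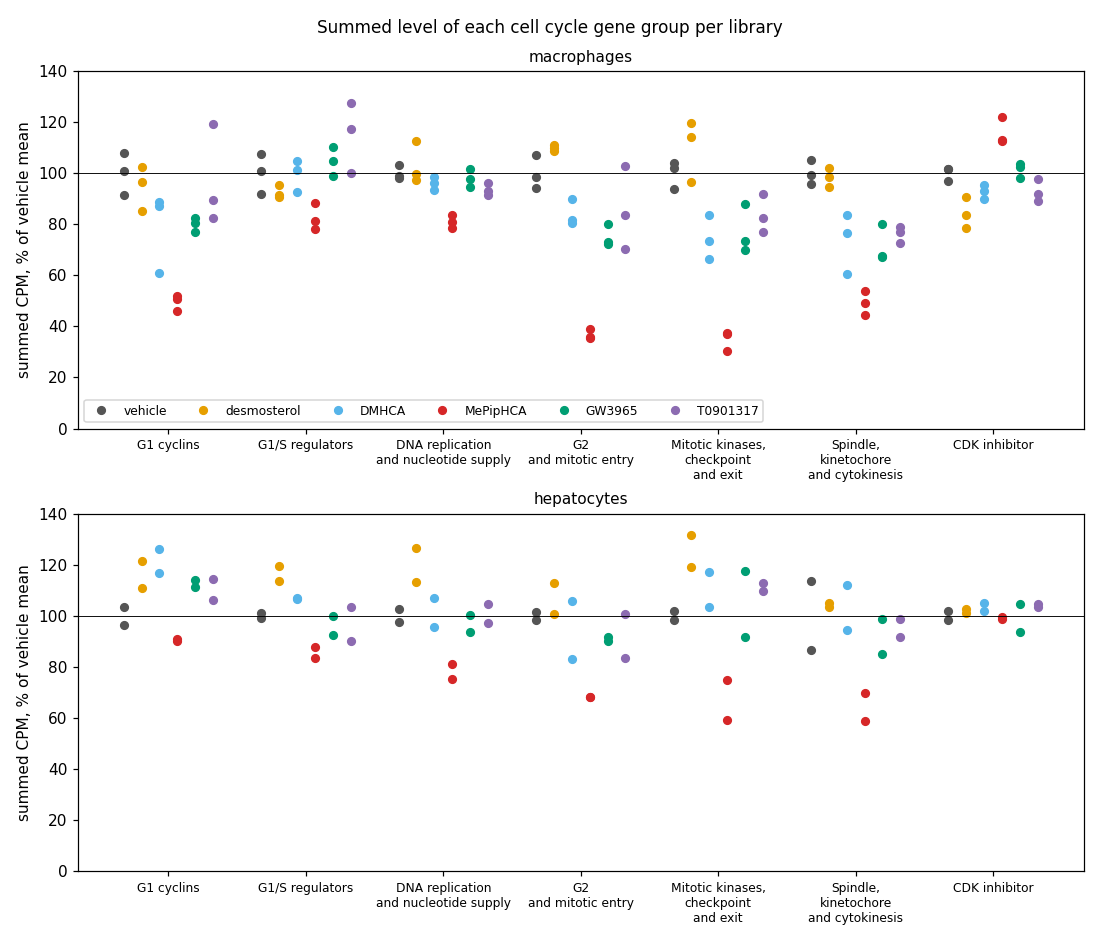
The y axis is the summed CPM of each gene group in each library as a percentage of the vehicle mean, in macrophages (top, 3 points per ligand) and hepatocytes (bottom, 2 points). In macrophages the MePipHCA points of the G2, kinase and spindle groups average 36.7%, 35% and 49.1% of vehicle and lie below every other point of their group.

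MePipHCA and DMHCA, given at the same dose, differed in macrophages. Of 38 genes 12 were lower with MePipHCA (12.1% of all genes tested) and 1, Cdkn1a, was higher (10.7%). The lower genes were Ccnd1, Ccnd3, Mcm4, Mcm5, Rrm2, Mki67, Top2a, Aurkb, Bub1, Kif20a, Prc1 and Nusap1. Mki67 differed by -2.02 ± 0.23 (adjusted p = 4.18e-9), Top2a by -1.29 ± 0.20, Ccnd1 by -1.49 ± 0.26 and Cdkn1a by 0.32 ± 0.07 on the log2 scale. For some genes the 2 compounds were not told apart: the interval of the difference was -0.36 to 0.03 for Mcm6, -0.32 to 0.00 for Pcna, -0.54 to 0.42 for Tpx2 and -1.28 to 0.57 for Aurka. With libraries thinned to 1 depth 5 genes were lower. In all 4 ligand pairs were compared: these 2 compounds in each cell type, and T0901317 with MePipHCA and with GW3965 in macrophages.

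MePipHCA also stood below T0901317, a compound of another class at the same dose, for 17 genes (13.9% of all genes tested were lower) and above it for Cdkn1a, 18 calls in all (25.9% of all genes tested). The lower genes include Bub1, which passed the filter on low counts only with the help of T0901317 and desmosterol libraries. Its call against T0901317 depends on that filter and is not read as a difference, though the counts of 17 and 18 still hold it. Ccnd1 differed by -1.87 ± 0.24 (adjusted p = 6.34e-8), Mki67 by -1.94 ± 0.23 and Prc1 by -1.94 ± 0.43 on the log2 scale. With libraries thinned to 1 depth, or with only these groups fitted, 10 genes were lower. Comparisons with MePipHCA share its libraries.

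In hepatocytes MePipHCA lowered 5 of 40 genes and raised 0 (edgeR, adjusted over 13176 genes; DESeq2 lowered 6 and raised 0), beside 1.38% of all genes that fell. At an unadjusted p under 0.05, 18 genes were lower and 0 higher. The 1.38% is at an adjusted p and is no background for these 18. The share of all genes at the unadjusted threshold is not given. The 5 were Top2a, Mki67, Cenpe, Rrm2 and Mcm4. By group, 2 of 7 G2 genes, 2 of 10 replication genes, 1 of 8 spindle genes and 0 of 7 mitotic kinases, 0 of 4 G1 to S regulators and 0 of 3 G1 cyclins fell. The medians of the kinase and spindle groups were -0.70 and -0.71. None is given over the G2 group, since Cdc25c passed the filter on low counts only through vehicle and desmosterol libraries.

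Top2a had 21 and 23.6 CPM in vehicle hepatocytes and 8.85 and 9.85 CPM with MePipHCA, a log2 change of -1.24 ± 0.21 (adjusted p = 6.36e-4). Mki67 had 21.8 and 21.9 CPM in vehicle and 11.9 and 10.4 CPM with MePipHCA, a log2 change of -0.98 ± 0.20 (adjusted p = 0.00433). Rrm2 had 63.9 and 59.5 CPM in vehicle and 32.7 and 43.1 CPM with MePipHCA, a log2 change of -0.70 ± 0.13 (adjusted p = 0.00202). In all 3 the libraries were apart. Cenpe fell by 1.35 ± 0.30 and Mcm4 by 0.54 ± 0.13. The Top2a call held in all 12 alternatives, the Mki67 call was lost without MePipHCA replicate 2 and the Rrm2 call without MePipHCA replicate 1. By leaving out 1 library the count ranged from 2 (without MePipHCA replicate 2) to 5, with 3 without vehicle replicate 2 or MePipHCA replicate 1, and with no filter on low counts it was 8.

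Other hepatocyte genes with high CPM in their groups did not pass. Mcm6 had 146.3 and 162.9 CPM in vehicle and 134.7 and 135.6 CPM with MePipHCA, a log2 change of -0.19 (interval -0.40 to 0.02). Ccna2 had 28.9 and 31 CPM in vehicle and 30.3 and 29.2 CPM with MePipHCA, an interval of -0.33 to 0.31. The Mcm6 pairs did not overlap and the Ccna2 pairs did. Bub1b had 7.46 and 16.2 CPM in vehicle and 6.37 and 5.03 CPM with MePipHCA (log2 -1.02, adjusted p = 0.0797). Aurka had 7.7 and 6.8 CPM in vehicle and 9.01 and 6.83 CPM with MePipHCA, an interval of -0.47 to 0.69. The 2 Bub1b vehicle libraries lay far apart, with both MePipHCA libraries below them, and the Aurka libraries overlapped. Prc1 had 13.8 and 16.3 CPM in vehicle and 11.8 and 12.1 CPM with MePipHCA, an interval of -0.76 to 0.12. Kif20a had 11.8 and 12.8 CPM in vehicle and 11.7 and 9 CPM with MePipHCA, an interval of -0.73 to 0.22. In these genes both MePipHCA libraries lay below both vehicle libraries. With 2 libraries a group such an order can arise without a change, and its share over all genes is not given.

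No G1 or G1 to S gene passed with MePipHCA in hepatocytes. Ccnd1 had 44.3 and 45.3 CPM in vehicle and 40.2 and 39.5 CPM with MePipHCA, an interval of -0.41 to 0.07. Ccnd3 had 65.1 and 68.6 CPM in vehicle and 53 and 58.6 CPM with MePipHCA (log2 -0.26, adjusted p = 0.409). Ccne1 had 46.3 and 45.2 CPM in vehicle and 34.9 and 36.2 CPM with MePipHCA (log2 -0.36, adjusted p = 0.156). In these 3 genes both MePipHCA libraries lay below both vehicle libraries, an order that with 2 libraries a group can arise without a change. Cdk2 had 28.2 and 28.6 CPM in vehicle and 29.1 and 29.2 CPM with MePipHCA. E2f1 had 18.8 and 14.5 CPM in vehicle and 13.7 and 13.9 CPM with MePipHCA. Ccne2 had 17.3 and 20.3 CPM in vehicle and 13.7 and 16.6 CPM with MePipHCA. The MePipHCA values of E2f1 and Ccne2 were the lower ones and those of Cdk2 the higher, and these 3 genes did not pass. Ccnb1 rested on 21 counts in vehicle and 5 with MePipHCA, at 1.63 and 0 CPM and at 0.248 and 0.106 CPM, and these overlapped. Cdkn1a had 452.6 and 437.6 CPM in vehicle and 443.7 and 439.8 CPM with MePipHCA, an interval of -0.17 to 0.15.

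**Figure D4:**
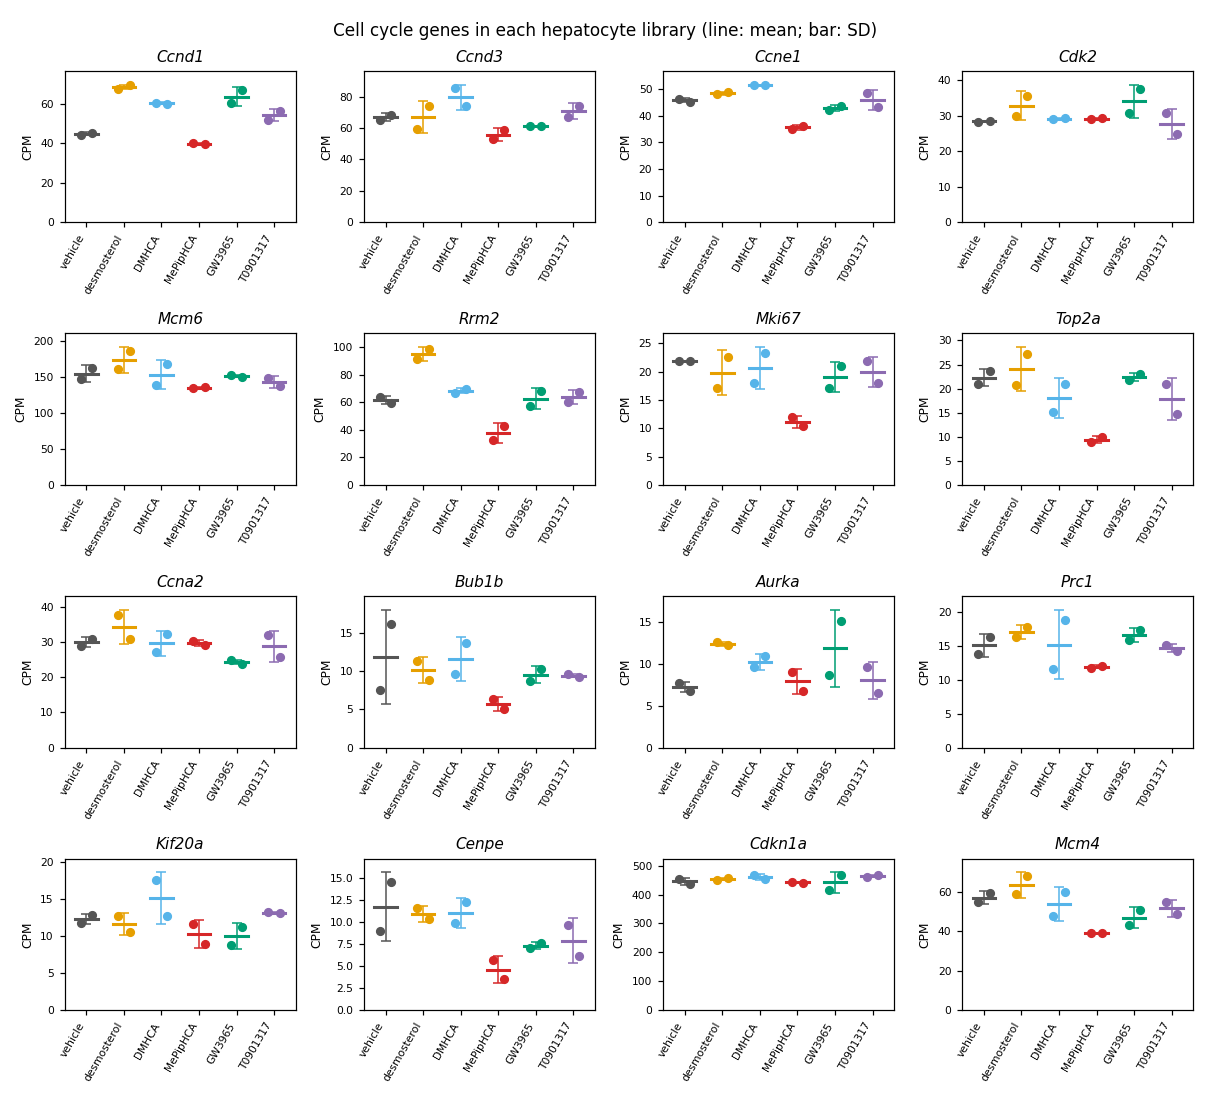
Each panel is a gene and shows CPM (y axis, from 0) in the 2 hepatocyte libraries of each group (points) with the mean (line) and SD (bar). Top2a and Mki67 are lowest with MePipHCA, Rrm2 and Ccnd1 are highest with desmosterol, and Cdkn1a spans 417 to 467.1 CPM over all libraries.

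Desmosterol raised 2 of 40 genes in hepatocytes (0.205% of all genes tested): Ccnd1, at 67.7 and 69.3 CPM beside 44.3 and 45.3 CPM in vehicle (log2 0.61 ± 0.12, adjusted p = 0.00956), and Rrm2, at 91.7 and 98.6 CPM beside 63.9 and 59.5 CPM (log2 0.62 ± 0.13, adjusted p = 0.0173). GW3965 raised Ccnd1 alone (0.364% of all genes tested), at 60.4 and 66.9 CPM (log2 0.51 ± 0.12, adjusted p = 0.0367). All these libraries lay above both vehicle libraries. Ccnd1 had 60.5 and 60 CPM with DMHCA and 52 and 56.4 CPM with T0901317, also above vehicle, without a call. These comparisons share the same 2 vehicle libraries. Such an order can arise without a change, and its share over all genes is not given. With 2 libraries a group these calls were fragile: the desmosterol pair was lost without desmosterol replicate 2 or either vehicle replicate, and the GW3965 call without any 1 of the 4 libraries compared.

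DMHCA changed 0 of 40 genes in hepatocytes by edgeR and by DESeq2, and 0% of all genes tested. At an unadjusted p under 0.05, 3 were higher and 0 lower. T0901317 changed 0 of 40 by either tool, beside 0.941% of all genes tested, with 2 higher and 0 lower at an unadjusted p under 0.05. At that unadjusted threshold 9 genes were higher and 0 lower with desmosterol, and 3 were higher and 4 lower with GW3965. The shares of all genes in this paragraph are at an adjusted p. Against DMHCA, MePipHCA was lower for 10 genes in hepatocytes (2.01% of all genes tested) and higher for 0, with 1 higher at an unadjusted p under 0.05 and 0 by DESeq2. The 10 were Ccnd1 (-0.60 ± 0.11), Ccnd3, Ccne1, Mcm3, Mcm4, Rrm2 (-0.84 ± 0.13), Mki67 (-0.90 ± 0.20), Top2a (-0.95 ± 0.21), Bub1b and Cenpe (-1.29 ± 0.29). By leaving out 1 library the count ranged from 4 (without either MePipHCA replicate) to 10, with 5 without DMHCA replicate 2.

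The change over vehicle was compared between cell types in 1 fit of all 30 libraries. All 40 genes entered it, also Ccnb1 and Cdc25c, which did not pass the filter in macrophages. The fit shares its estimate of variation over both cell types. The common coefficient of biological variation was 0.0771 in it, beside 0.0554 in macrophages and 0.106 in hepatocytes fitted alone. Variation among hepatocyte libraries may thus be understated. With MePipHCA 5 of 40 genes fell further in macrophages than in hepatocytes (4.62% of all 13700 genes tested were lower in this sense) and 0 fell less (edgeR and DESeq2; 1 at an unadjusted p under 0.05). They were Ccnd1 (a difference of -1.44 ± 0.27, adjusted p = 1.15e-4), Rrm2 (-2.02 ± 0.56), Ccna2 (-0.75 ± 0.25), Mki67 (-1.44 ± 0.30) and Prc1 (-1.76 ± 0.46). The Ccnd1 and Mki67 calls held in all 18 alternatives, and the Ccna2 call was lost in 12. For Top2a, at -1.37 in macrophages and -1.24 in hepatocytes, the interval of the difference was -0.71 to 0.46. The tables list different transcripts of Prc1 in the 2 cell types. Without macrophage MePipHCA replicate 2 or 3, 3 genes passed. Mesothelial markers summed to 3.97 to 5.24 CPM with MePipHCA in hepatocytes beside 7.93 to 12.4 CPM in vehicle. Nearly all of that was Krt19, at 3.31 and 4.66 CPM beside 7.70 and 12.2 CPM, a keratin that is also on the cholangiocyte list. The cholangiocyte markers summed to 87.1 to 90.1 CPM beside 65.6 to 89.1 CPM in vehicle, and fibroblast markers to 2.73 to 3.18 CPM beside 2.12 to 3.81 CPM. The part of these markers in the differences was not tested. With the other 4 ligands 0 of 40 differences passed by edgeR, beside 2.53% of all genes with desmosterol, 2.76% with DMHCA, 3.12% with GW3965 and 3.60% with T0901317, and DESeq2 gave 1 with desmosterol and 0 with the rest. At an unadjusted p under 0.05 the lower and higher counts were 6 and 1 with desmosterol, 5 and 0 with DMHCA, 6 and 0 with GW3965 and 4 and 0 with T0901317. The shares of all genes beside the differences are at an adjusted p.

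**Figure D5:**
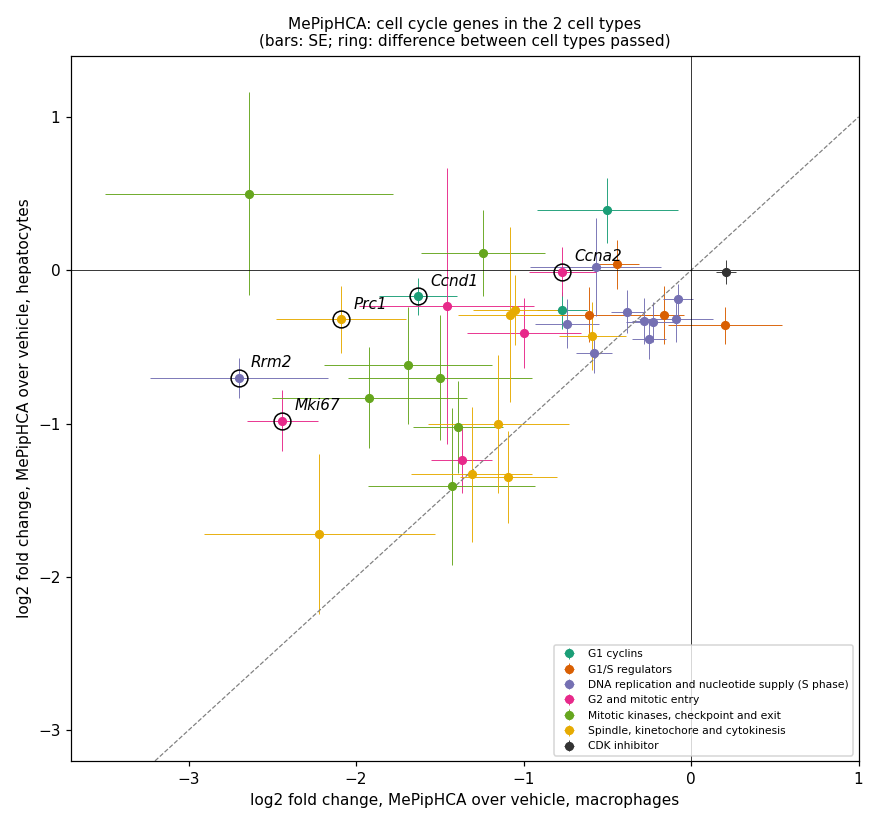
Each point is a gene, with its log2 fold change of MePipHCA over vehicle in macrophages (x axis) and hepatocytes (y axis), coloured by phase, with SE bars; the dashed line marks equal change. The 5 ringed genes passed the test of the difference between cell types and lie left of the line.

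Other genes of the same processes were read beside the 40. With MePipHCA in macrophages 13 of 32 tested mitosis genes outside the 40 fell and 0 rose, with a median log2 change of -0.80, and of 23 replication genes 4 fell and 1 rose, with a median of -0.35. Of all genes tested there, 18.3% fell and 17.1% rose. The 4 were Lig1, Uhrf1, Dut and Clspn and the 1 Slbp, all but Lig1 named after their values were seen. The mitosis genes of highest CPM were Incenp (-0.13 ± 0.10) and Smc4 (-0.20 ± 0.10), which did not pass, and the condensin subunit Smc2, which fell by 0.52 ± 0.14. Those of replication were Cdt1 (0.16 ± 0.10) and Fen1 (0.21 ± 0.11), which did not pass, and DNA ligase Lig1, which fell by 0.35 ± 0.13. In hepatocytes 3 of 38 mitosis genes fell with MePipHCA, beside 1.38% of all genes tested: Ube2c (-1.60 ± 0.42), Anln (-0.76 ± 0.20) and Smc2 (-0.58 ± 0.14), of which Ube2c and Anln were named after their values were seen. The median of the 26 replication genes was -0.25 there.

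For 12 of the 40 genes an exon overlaps an exon of a gene on the opposite strand: Ccnd1, Ccnd2, Ccnd3, Ccne2, Mcm7, Ccna2, Plk1, Cdc20, Kif20a, Prc1, Nusap1 and Cdkn1a. The counting option for strand is not given in the sources used here, so their counts may hold reads of the partner. Mki67, Top2a, Rrm2, Bub1b and Pcna are not among them.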

How the data were processed

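Polyadenylated RNA was sequenced in 30 libraries, from strand-marked (dUTP) cDNA per the labels' protocols. The authors aligned reads with STAR and counted with HOMER on mouse build mm10, with no versions given, per the submitters' processing notes. The deposited count tables hold raw exon read counts for 1 RefSeq transcript of each gene, per the file headers. Per the file headers, the deposited RPKM tables divide such counts by gene length and depth, and they served here only for levels compared between genes. No strand setting is named in the headers, so where genes on opposite strands overlap their reads cannot be told apart.

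The quasi-likelihood test of edgeR 4.0.16 (R 4.3.3) was run on the counts. Low genes were dropped by filterByExpr (a CPM of about 1.36 in 3 macrophage libraries or 0.712 in 2 hepatocyte libraries), libraries were scaled by TMM factors, and 1 mean per group was fitted to all 6 groups of a cell type. Residual degrees of freedom were 12 in macrophages and 6 in hepatocytes. For the cell type comparison the tables were joined by gene symbol and all 30 libraries were fitted together, with 18 residual degrees of freedom. P-values were adjusted over all genes tested by the Benjamini-Hochberg method at a threshold of 0.05. SEs were derived as log2 fold change over the square root of F, and intervals are at 95%. The steps were tested on simulated counts.

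Any of the 40 genes could be named. Library values were given for the 2 genes of each group with the highest mean CPM in that cell type and for Mki67, Ccnb1, Ccne2, Ccnd1, E2f1 and Cdkn1a. Those of Rrm2 and Ccnd2 in macrophages fall outside this rule and were added after their values were seen. The figures also show library values outside this rule, for Prc1 in macrophages and for Cenpe and Mcm4 in hepatocytes. Other lists were given by counts, with up to 3 genes of highest mean CPM. The members and lists were chosen with earlier results of these data known. Replicate numbers did not pair libraries: the deviations of libraries with the same number correlated at -0.0708 to 0.142 in macrophages and -0.0223 to 0.0623 in hepatocytes. Alternatives were other scaling factors, other filters, DESeq2 1.42.0, libraries thinned to 1 depth, a fit of only the groups compared, a replicate block and leaving out each library. Promoter windows came from RefSeq on GRCm38.p6, and gene overlaps from GENCODE.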

Additional observations from a re-analysis of the deposited data

Results flagged for a closer look

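The change with MePipHCA over vehicle differed between macrophages and hepatocytes, by the interaction test in edgeR, for 5 of the cell cycle genes. Rrm2 changed by -2.70 in macrophages and -0.70 in hepatocytes on the log2 scale, a difference of -2.02 in the joint fit, and rested on 6 macrophage counts with MePipHCA. Prc1 changed by -2.09 and -0.32, a difference of -1.76. Ccnd1 changed by -1.63 and -0.17, a difference of -1.44, and Mki67 by -2.44 and -0.98, also a difference of -1.44. Ccna2 changed by -0.77 and -0.01, a difference of -0.75, which was lost in 12 of 18 alternatives. Cell type cannot be told apart from medium and date here.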

How the results depend on the processing

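No gene called in any comparison changed sign under the alternatives run. With libraries thinned to 1 depth the macrophage genes lowered numbered 1 with desmosterol, 3 with GW3965 and 2 with T0901317, and those lower with MePipHCA than with DMHCA or T0901317 numbered 5 and 10. With only the compared groups fitted DMHCA lowered 3 and MePipHCA stood below T0901317 for 10. With no filter on low counts DMHCA lowered 3 in macrophages and MePipHCA 8 in hepatocytes. DESeq2 gave 0 lowered genes with DMHCA and 1 with T0901317 in macrophages, and 1 cell type difference with desmosterol, as did a filter on mean CPM. The cause was not tested. The share of all genes called under each alternative is not given, here or elsewhere in the text. Whether these genes lose calls more often than other genes was therefore not tested.

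Leaving out 1 library at a time, genes lowered in macrophages ranged from 1 to 2 with desmosterol, 0 to 1 with DMHCA, 20 to 26 with MePipHCA (0 to 1 raised), 1 to 4 with GW3965 and 0 to 3 with T0901317. MePipHCA stood below DMHCA for 8 to 10 and below T0901317 for 12 to 15. In hepatocytes MePipHCA lowered 2 to 5 and stood below DMHCA for 4 to 10, desmosterol raised 0 to 2 and GW3965 0 to 0. Cell type differences ranged from 3 to 5 with MePipHCA and from 0 to 1 with desmosterol, DMHCA and GW3965. In hepatocytes this leaves 1 library in a group, which is assumed to vary like the others.

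The replicate numbers did not pair libraries. With the number as a replicate block, MePipHCA lowered 28 genes in macrophages and 5 in hepatocytes, GW3965 4 and T0901317 4 in macrophages, and MePipHCA gave 4 cell type differences. Depth limits these genes: 29 of the 40 had fewer than 100 counts over the 3 macrophage libraries with MePipHCA.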

Other observations

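Regulators around the cycle were read in macrophages with MePipHCA. Of 12 p53 targets other than Cdkn1a, 3 rose and 3 fell, beside 17.1% and 18.3% of all genes tested, with a median log2 change of 0.00. Gadd45a, a growth arrest gene, had 116.9 ± 2.59 CPM (SD, n = 3) in vehicle and 217 ± 4.12 CPM with MePipHCA, a log2 change of 0.89 ± 0.06 (SE), and rose in hepatocytes as well (0.64 ± 0.12). Mdm2, the ubiquitin ligase of p53, rose by 0.56 ± 0.06, and Ccng1 had a log2 change of -0.01 ± 0.06. Gdf15 (0.35 ± 0.08) rose too, and Sesn1 (-0.92 ± 0.08), Trp53inp1 (-0.39 ± 0.08) and Btg2 (-0.59 ± 0.11) fell, all 4 named after their values were seen. Some of these moves were not particular to MePipHCA. With DMHCA and GW3965 in macrophages Gadd45a also rose (0.54 ± 0.06 and 0.58 ± 0.06) and Btg2 also fell (-0.58 ± 0.11 and -0.66 ± 0.11). Gdf15 (0.93 ± 0.08), Sesn1 (0.29 ± 0.07) and Trp53inp1 (0.30 ± 0.08) rose with GW3965 and did not pass with DMHCA. Mdm2 passed with neither.

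Of 8 other CDK inhibitors and pocket proteins 4 fell, beside 18.3% of all genes tested. They were Cdkn1c (-0.23 ± 0.06), Rb1 (-0.39 ± 0.09), Rbl2 (-0.23 ± 0.07) and, named after its value was seen, Rbl1 (-0.38 ± 0.10). Cdkn1c and Rb1 also fell with DMHCA (-0.32 ± 0.06 and -0.27 ± 0.09) and with GW3965 (-0.54 ± 0.06 and -0.26 ± 0.09). Rbl1 also fell with GW3965 (-0.31 ± 0.09), and Rbl2 passed with neither. The 3 other E2F genes of highest CPM did not pass with MePipHCA, with E2f4 at 0.02 ± 0.08, E2f3 at 0.06 ± 0.11 and E2f6 at 0.17 ± 0.12. Of 7 genes of the early response to growth signals 3 fell and 1 rose, beside 18.3% and 17.1% of all genes tested. Klf6 (-0.06 ± 0.05), Jun (0.04 ± 0.06) and Ccnl1 (0.15 ± 0.09) did not pass. Named after their values were seen, Egr1 (-1.43 ± 0.19), Fos (-0.63 ± 0.18) and Ier2 (-0.71 ± 0.13) fell and Myc (0.84 ± 0.14) rose. Egr1 also fell with DMHCA (-0.68 ± 0.17), and Fos (-0.80 ± 0.18) and Ier2 (-0.34 ± 0.12) with GW3965. Klf6, Jun and Ccnl1 fell with both of these ligands, and Myc passed with neither.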
